A study of Homo sapiens with 2 samples.

Results

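Neuregulins are growth factors with an EGF-like domain, and the ERBB family are the receptor tyrosine kinases that bind them and the other EGF-like ligands. All 7 listed genes of this system (NRG1, NRG2, NRG3, EGFR, ERBB2, ERBB3 and ERBB4) were taken by gene name, and each matched 1 of the 62704 genes in both deposited libraries. The 3 ligands and 4 receptors were listed as members of the pathway, and the rule used no measured value. The list was, however, chosen with earlier results of these data known. Their transcripts were counted in human brain organoids grown from hES H9, an established embryonic stem cell line, by split-seq, in which each cell or nucleus receives its barcode over successive rounds in wells of a plate.

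The library of cells held control cerebral organoids (CO, made with a commercial kit) of days 45, 55 and 70. It also held organoids dissociated at day 45 and reaggregated (DISS) of days 48, 55 and 70, and organoids freed of Matrigel and embedded in agarose (CONS) of day 55. The library of nuclei came, by the study's methods, from day 45 organoids, whole or dissociated, while its label also lists an embedded group. All organoids carried the same H9 background, and the deposited tables give 1 sample name for every barcode of a library. By the study's methods each library pooled several organoids from more than 1 batch per condition and day. The wells could not be tied to an organoid, batch, condition or day, so each library is 1 sample here and no test between groups was possible.

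A barcode was kept when it held over 500 genes and over 1000 transcripts, with no more than 20% of them mitochondrial. This left 20178 of 1303455 barcodes in the library of cells, with a median of 2615 transcripts, and 14228 of 197446 in the library of nuclei, with a median of 3890. The kept barcodes held 157306492 and 72162726 transcripts, and 99 kept barcode names occurred in both libraries. The labelled tissue was reflected in the lists of the brain's cell types, with the summed radial glia list at up to 5561 CPM in a cluster of cells. The summed microglia list was at most 28.2 CPM in any cluster of cells and the endothelial list 102. Clusters were named from marker lists, with the members and their pathway genes left out of the clustering. 10 of 23 clusters of cells, holding 8589 barcodes or 42.6%, stayed unnamed, as did 5 of 17 clusters of nuclei, holding 3440 barcodes. Levels are counts summed over a type, per 1000000 transcripts of that type (CPM). The SD and range given with them run over the 8 sub-libraries of cells or the 2 of nuclei, which are technical divisions of 1 sample.

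In the developing cortex, neuregulins are known as signals between neurons, glia and progenitors. ERBB4 binds neuregulins and is itself an active kinase. ERBB3 binds neuregulins but has little kinase activity, ERBB2 has no known ligand of its own and serves as the partner in dimers, and EGFR binds EGF-like ligands rather than neuregulins. ERBB4 is best known in cortex as a receptor of inhibitory interneurons, and NRG1 and NRG3 as ligands of the excitatory neurons that contact them. In the glial lineage of the neural crest, ERBB3 with ERBB2 carries the neuregulin signal.

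On GRCh38, with GENCODE 44 positions, ERBB4 lies on chromosome 2 from 211375717 to 212538841 on the minus strand, and NRG2 on chromosome 5 from 139846779 to 140043299, also on the minus strand. The other 5 lie on the plus strand. These are EGFR on chromosome 7 from 55019017 to 55211628, NRG1 on chromosome 8 from 31639222 to 32855666, and NRG3 on chromosome 10 from 81875194 to 82987179. ERBB3 lies on chromosome 12 from 56076799 to 56103505, and ERBB2 on chromosome 17 from 39687914 to 39730426. NRG1, NRG3 and ERBB4 span 1216, 1112 and 1163 kb, of which 21.4, 5.19 and 13.0 kb are exon. The span of NRG1 overlaps 6 other annotated genes, 4 of them on its own strand, and that of ERBB2 overlaps PGAP3 and MIEN1. Whether the counting used strand is not given in the sources used here, so reads in those overlaps could not be assigned with certainty.

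The 250 bases before the RefSeq start of ERBB4 and of EGFR are shown because these were the receptors at least 2-fold higher in choroid plexus-like than in radial glia-like barcodes of both libraries. The build is GRCh38.p14, each sequence is written 5′ to 3′ on the gene's own strand, and capitals mark the letters GGGCGG of a GC box or their reverse complement. ERBB4 is read from chr2:212538803-212539052 on the minus strand and EGFR from chr7:55018767-55019016 on the plus strand.

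ERBB4: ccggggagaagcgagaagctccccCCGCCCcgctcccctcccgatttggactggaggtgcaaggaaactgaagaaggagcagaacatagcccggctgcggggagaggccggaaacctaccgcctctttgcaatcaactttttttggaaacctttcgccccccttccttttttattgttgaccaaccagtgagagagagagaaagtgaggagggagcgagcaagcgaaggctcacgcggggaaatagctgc

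EGFR: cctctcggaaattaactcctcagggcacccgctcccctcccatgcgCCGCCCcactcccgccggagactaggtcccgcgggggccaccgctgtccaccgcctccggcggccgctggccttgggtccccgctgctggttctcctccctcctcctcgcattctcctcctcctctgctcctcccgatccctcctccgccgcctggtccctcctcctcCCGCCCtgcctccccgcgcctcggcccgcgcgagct

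The ERBB4 window held 1 GGGCGG on either strand and 57.2% G and C, and the EGFR window held 2 and 73.6%. Over 35116 RefSeq promoter windows of this length the median G and C content was 58.0%, and 42.6% held GGGCGG. Neither window held TAATCC, the core letters of the sites that OTX factors are known to bind, which 5.62% of all windows held on either strand. Neither held TATAAA, the letters of a TATA box, found in 10.7%. 5 of the 7 members had an entry in the promoter table.

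To set the members beside one another, their levels were taken per length. Per kilobase of exon, NRG3 led in cells at 146 CPM and in nuclei at 281. NRG1 followed in cells at 34.1, with ERBB4 at 14.4, whereas in nuclei ERBB4 reached 32.2 and NRG1 29.6. NRG2 (3.25 in cells, 3.92 in nuclei), ERBB2 (2.32 and 2.00) and EGFR (0.731 and 0.805) were lower in both, and ERBB3 was lowest, at 0.174 and 0.0639. The order rests on the length used, since whole-transcript counts of cells and nuclei hold intronic reads. Per 100 kilobases of gene span, the shorter genes moved up, and ERBB2, with a span of 42.5 kb, stood at 56.3 CPM in cells, beside 68.3 for NRG3, 60.0 for NRG1 and 16.1 for ERBB4.

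**Figure D1:**
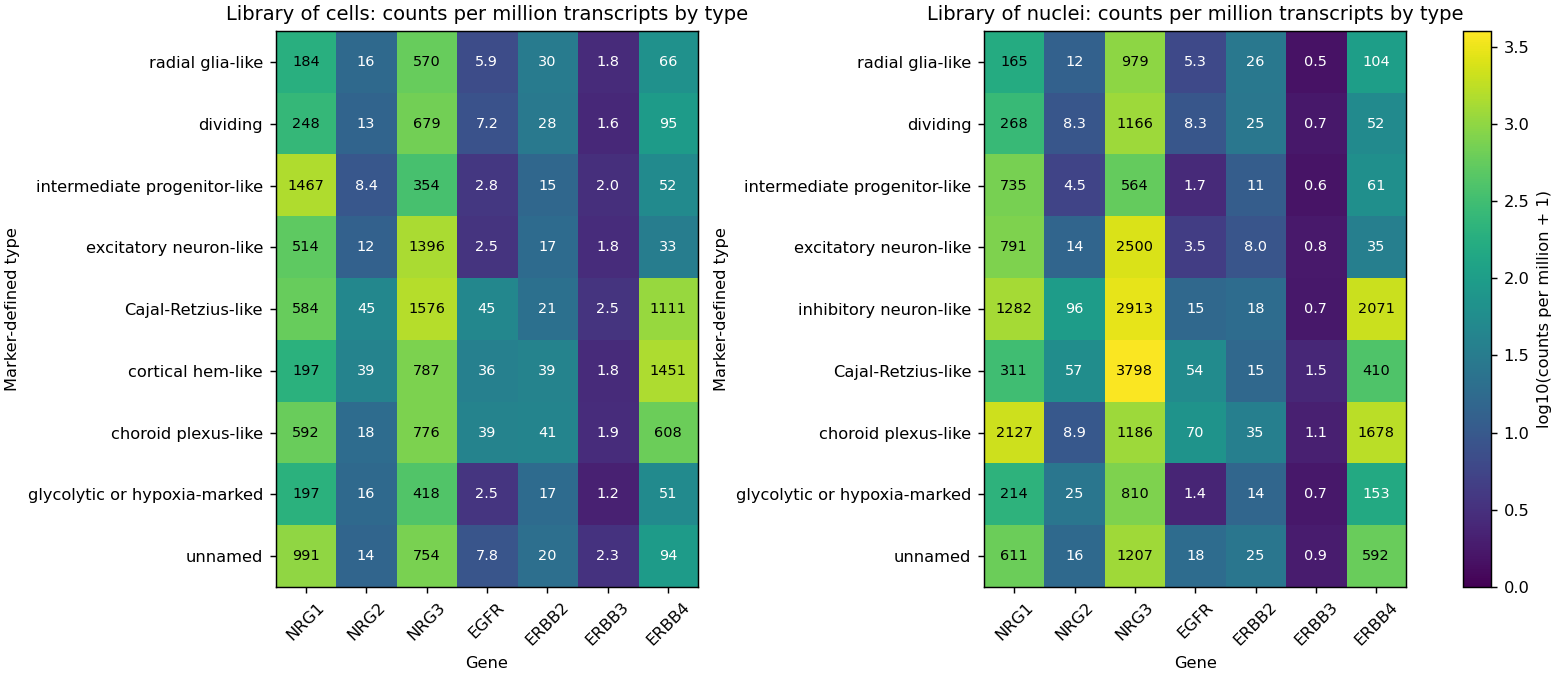
Level of each gene in each marker-defined type, in CPM (number in each tile) with colour on a log10(CPM + 1) scale, for cells (left) and nuclei (right). NRG3 was at least 354 in every type, ERBB3 was at most 2.51, and ERBB4 ranged from 33.1 to 1451 in cells and from 35.2 to 2071 in named types of nuclei.

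RNA outside cells bears on low levels. Barcodes of 10 to 100 transcripts, too small to be cells, held 837 CPM of NRG1, 777 of NRG3 and 230 of ERBB4 in the library of cells. A free-RNA estimate was made for each type as the level a gene would have if all TTR in that type (for choroid plexus-like barcodes, all NEUROD2 and NEUROD6) came from this background. TTR is the transport protein that choroid plexus secretes, and it stood at 251 CPM in radial glia-like cells, 46.8% of its background level, but at 8.28 CPM, or 13.3%, in radial glia-like nuclei. In cells, NRG1 in radial glia-like, Cajal-Retzius-like, cortical hem-like, glycolytic and dividing barcodes lay at or below that estimate. So did ERBB4 and EGFR in radial glia-like, intermediate progenitor-like, excitatory neuron-like and glycolytic barcodes, and NRG3 in cortical hem-like ones. In cortical hem-like cells TTR stood at 135% of its background level, so not all of it could come from this background. The estimates there, 1130 CPM for NRG1 and 1049 for NRG3, exceed the background itself, so lying below them tells little. In nuclei it held for NRG1, ERBB4 and EGFR in glycolytic, EGFR in intermediate progenitor-like and ERBB4 in excitatory neuron-like barcodes. The estimate takes all of a type's TTR as free RNA, so it is an upper one where free RNA has the same make-up in every well. That make-up was not measured by well. At those levels expression could not be told apart from free RNA.

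The ligand NRG1 was highest, among named types of cells, in intermediate progenitor-like barcodes. The type is named for the EOMES-marked progenitors that give rise to excitatory neurons. Its cluster of cells also passed markers of the excitatory neuron list, and EBF2, PLXNA4 and CNTN2 were among its leading genes beside EOMES. In nuclei the cluster led by EOMES held 119 CPM of NRG1 and the other cluster of this type 1247. Whether the NRG1 of cells came from EOMES-marked progenitors was not tested. Over the 8 sub-libraries the NRG1 level in the 1057 barcodes of cells ran from 995 to 2072 CPM with a median of 1438, for 1467 ± 403 (SD) in the sum. This was above the free-RNA estimate of 251, but that estimate uses the background of all wells together, and NRG1 differed widely over wells. The highest Cajal-Retzius-like sub-library, at 1002, just passed the lowest intermediate progenitor-like one. The order depended on the clustering, and at Leiden resolution 2 NRG1 was 722 CPM in intermediate progenitor-like and 1365 in excitatory neuron-like cells. Choroid plexus-like barcodes stood at 592 ± 92.2 CPM (462 to 744), Cajal-Retzius-like ones at 584 ± 265 (327 to 1002) and excitatory neuron-like ones at 514 ± 140 (381 to 829), and these 3 overlapped one another. Dividing (248), cortical hem-like (197), glycolytic (197) and radial glia-like (184 ± 44.4) barcodes formed the low end, and their ranges overlapped as well.

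In nuclei NRG1 led in the choroid plexus-like type, at 1900 and 2400 CPM in the 2 sub-libraries. The inhibitory neuron-like type followed at 1235 and 1343, then excitatory neuron-like nuclei at 773 and 805, with intermediate progenitor-like nuclei at 641 and 856 on either side of them. At Leiden resolution 0.5 the intermediate progenitor-like level was 442 CPM, below the excitatory neuron-like one. Cajal-Retzius-like nuclei stood at 262 and 369 CPM, and radial glia-like nuclei at 153 and 175. The Cajal-Retzius-like level depended on the clustering, with 1150 CPM at Leiden resolution 0.5 and 679 at resolution 2. The radial glia-like value of 165 CPM in the sum lay above its free-RNA estimate of 78.7.

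Within a named type, NRG1 was far from even. Of the 2 clusters of excitatory neuron-like nuclei, the one led by KCNQ5 and PRDM8 held 1479 CPM of NRG1 and the one led by OPCML and CDH7 held 190. NRG3 had the opposite order in the same clusters, with 1615 CPM in the former and 3271 in the latter. The 2 clusters of intermediate progenitor-like nuclei held 1247 and 119 CPM of NRG1, and the leading genes of the higher one included EBF2, PLXNA4 and CNTN2, an axonal adhesion protein, while EOMES led the lower. NRG3 stood at 583 and 541 CPM in these, close to each other.

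The highest NRG1 of all was in unnamed cells. Cluster 13, of 706 barcodes, held 2994 CPM, and cluster 11, of 966 barcodes, held 2892. Both had SV2C, which encodes a synaptic vesicle protein, and ADAMTS19, which encodes a secreted protease, among their 10 leading genes. NRG1 itself was among the leading genes of cluster 11, although it took no part in forming the clusters. Cluster 11 had 4 markers of the radial glia list but a list mean under the limit, and cluster 13 lay between the dividing and the radial glia list, so neither was named. Cluster 11 drew barcodes from 21 wells, with 67.0% from 3 of them, and cluster 13 from 23 wells, with 37.3% from 3.

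NRG3, a ligand of ERBB4 made by neurons, was highest in the neuron-like types of both libraries. In cells, Cajal-Retzius-like barcodes (the RELN-producing neurons of the cortical surface) held 1576 ± 500 CPM over sub-libraries of 885 to 2254. Excitatory neuron-like barcodes held 1396 ± 132 CPM over 1224 to 1671, within the range of the former. The sub-libraries of every other named type lay below the lowest excitatory neuron-like one. Cortical hem-like (787), choroid plexus-like (776), dividing (679) and radial glia-like (570 ± 74.1) barcodes came next, and intermediate progenitor-like ones were lowest, at 354 ± 35.1.

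In nuclei NRG3 stood at 3772 and 3829 CPM in the Cajal-Retzius-like type and at 2849 and 2996 in the inhibitory neuron-like type. Excitatory neuron-like nuclei held 2464 and 2529, and no range of sub-libraries overlapped the next. Over wells with at least 20 barcodes of a type these 3 types did overlap. Inhibitory neuron-like nuclei ran from 2456 to 3526 CPM and excitatory neuron-like ones from 1884 to 3202. The 1 such well of Cajal-Retzius-like nuclei held 2840. Choroid plexus-like (1057 and 1293), dividing (1160 and 1173) and radial glia-like (978 and 981) nuclei were lower, and intermediate progenitor-like nuclei were again lowest, at 538 and 596. Intermediate progenitor-like barcodes were thus the lowest named type for NRG3 by summed level in both libraries. In cells the next, glycolytic barcodes at 418 CPM (362 to 490), overlapped their range of 297 to 407.

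NRG2, another neuregulin of neurons, was sparse, with 2355 counts in all kept cells and 1301 in all kept nuclei. It stood at 88.2 and 101 CPM in inhibitory neuron-like nuclei and at 37.1 and 81.3 in Cajal-Retzius-like nuclei. Every other named type of nuclei held at most 24.7 CPM, with intermediate progenitor-like nuclei lowest at 4.48. In cells it was 44.7 ± 19.2 CPM in Cajal-Retzius-like and 39.3 ± 17.7 in cortical hem-like barcodes, against 8.45 to 18.01 elsewhere. With the mean of single-barcode CPM in place of summed counts, the Cajal-Retzius-like level of cells was 79.4 CPM.

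ERBB4, the neuregulin receptor with a kinase of its own, had the widest spread over the named types among the members, taken as highest over lowest level. EGFR came near it in nuclei, at 1.39 to 69.6 CPM. The lowest ERBB4 level of each library lay below its free-RNA estimate. In cells it stood at 1451 ± 494 CPM (951 to 2070) in cortical hem-like barcodes, which carry the WNT and RSPO markers of the medial edge of the cortex. Cajal-Retzius-like barcodes followed at 1111 ± 300 (687 to 1516) and choroid plexus-like ones at 608 ± 70.0 (543 to 730), and each of these ranges overlapped its neighbour. All remaining named types held at most 168 CPM in any sub-library, with radial glia-like at 65.6 ± 20.1 (42.9 to 95.3) and excitatory neuron-like at 33.1 ± 5.28 (28.3 to 42.4). 57.1% of the cortical hem-like barcodes came from 1 well, and without it ERBB4 in this type was 2187 CPM. The larger cluster of the type passed 7 of 8 cortical hem markers, but its 10 leading genes held none of them and included PAX3, a factor of dorsal neural tube and neural crest, and DCT, a pigment cell enzyme. It was also the cluster of cells highest in the list of neural crest, Schwann and melanocyte markers, whose part in the ERBB4 level was not tested.

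In nuclei ERBB4 stood at 1968 and 2150 CPM in the inhibitory neuron-like type and at 1646 and 1705 in the choroid plexus-like type. The level of Cajal-Retzius-like nuclei rests on 109 barcodes and was less steady than its sub-libraries. The 1 well with enough of these barcodes for a level held 73.8 CPM, and the mean of single-barcode CPM was 566. In the sub-libraries Cajal-Retzius-like nuclei held 410 and 411 CPM. Glycolytic (109 and 186), radial glia-like (102 and 106), intermediate progenitor-like (56.2 and 68.0), dividing (47.6 and 55.1) and excitatory neuron-like nuclei (27.5 and 44.4) lay below, the last under a free-RNA estimate of 55.3. The highest cluster was unnamed. Its 221 barcodes, led by PAX3 and WNT3 and drawn from all 12 wells, held 3460 CPM, and ERBB4 was among its 10 leading genes. Another unnamed cluster, led by RSPO2 and near both the cortical hem and choroid plexus lists, held 1101 CPM over 945 barcodes.

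The name of the inhibitory neuron-like type needs care. Of its list, GAD1 stood at 164 CPM, GAD2 at 73.5 and the noncoding DLX6-AS1 at 81.0. The defining transcription factors were near 0, with 2 counts of DLX1 and 5 each of DLX2, DLX5 and DLX6 over 753 barcodes, and the transporter gene SLC32A1 had 13. The same barcodes held 445 CPM of EBF3 and 450 of RELN, 2 genes of the Cajal-Retzius list, beside 5228 of RELN in Cajal-Retzius-like nuclei. Clustered at the coarser Leiden resolution of 0.5, no inhibitory neuron-like type was found, and Cajal-Retzius-like nuclei then held 1842 CPM of ERBB4. No cluster of cells met the name, and the whole list reached at most 111 CPM there, in the Cajal-Retzius-like cluster.

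The choroid plexus-like type rested on firmer markers. In cells it held 2683 CPM of TTR and 8931 of HTR2C, the serotonin receptor of this epithelium, and 7 of the 8 listed markers passed in its cluster of nuclei, where HTR2C reached 26624 CPM. The 10 leading genes of that cluster were mostly genes of motile cilia, such as CFAP47, ARMC3 and DNAH9, and the list of multiciliated cells reached 1418 CPM in it. The type held 3 clusters of cells. ERBB4 was 732 CPM in the one with cilia genes among its leading genes, 323 in a shallow one with a median of 1587 transcripts, and 456 in one that drew 94.6% of its barcodes from 1 well.

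**Figure D2:**
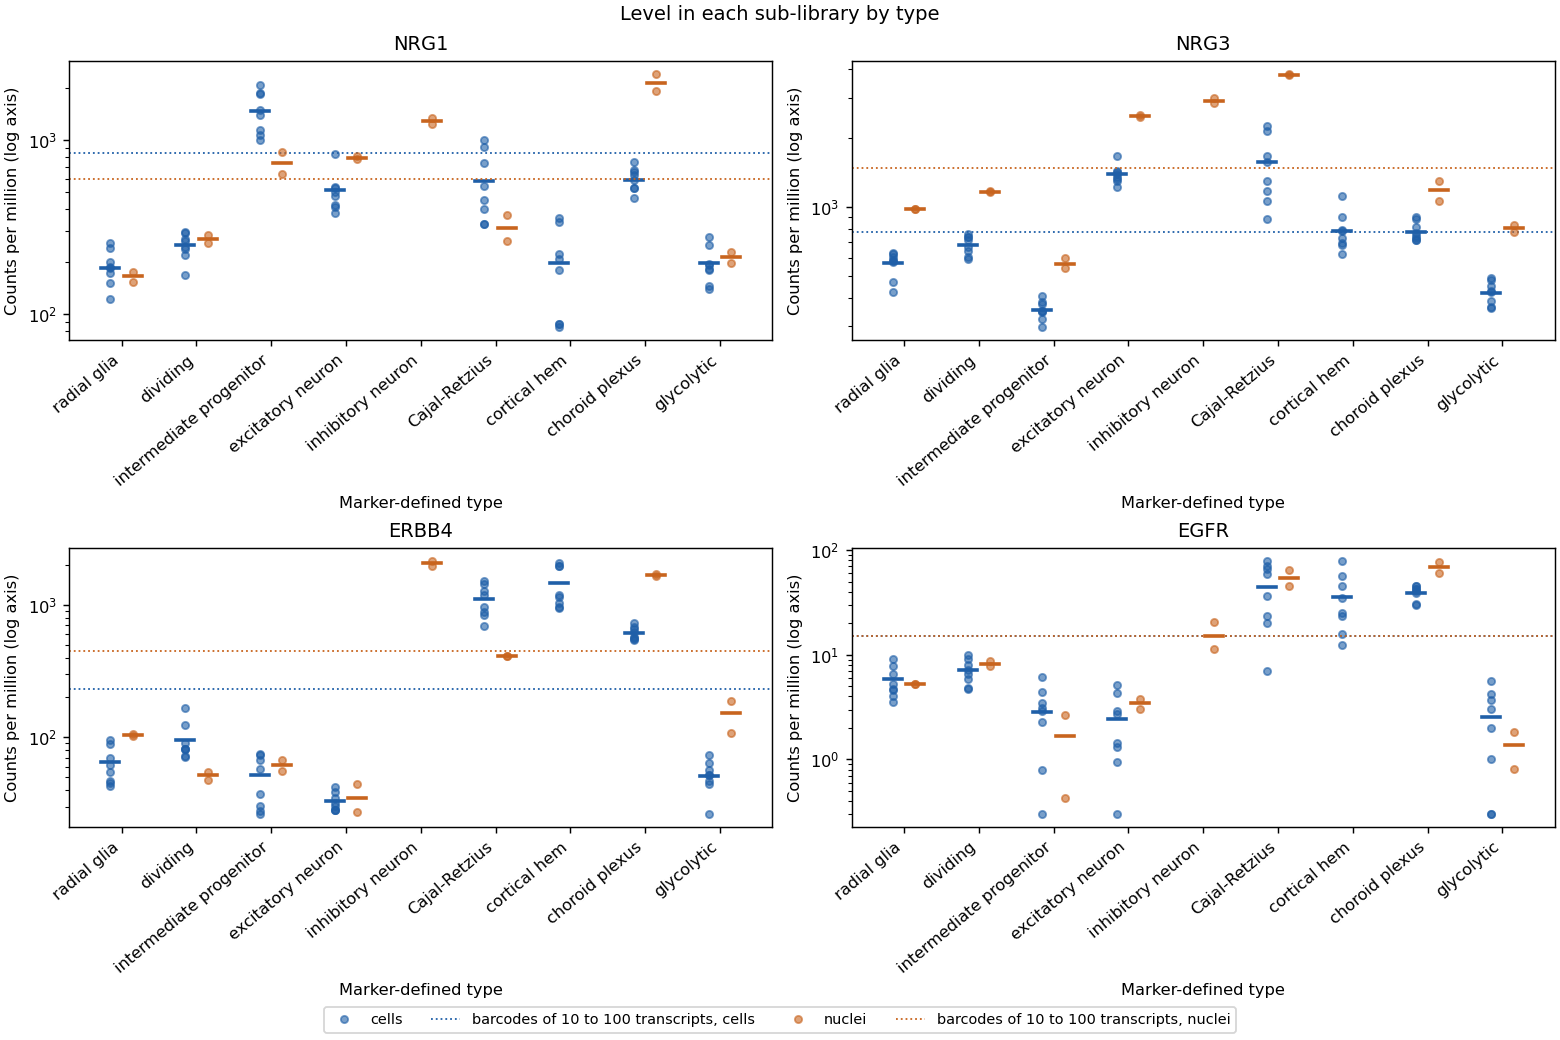
Level of NRG1, NRG3, ERBB4 and EGFR (CPM, log axis) in each sub-library of cells (blue points) and nuclei (orange points) by marker-defined type. Bars mark the level in the sum, dotted lines mark barcodes of 10 to 100 transcripts, and sub-libraries without a count are drawn at the foot of the EGFR panel. ERBB4 in choroid plexus-like barcodes lay between 543 and 730 in cells, above every sub-library of the radial glia-like type, which reached 95.3.

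EGFR, the receptor of EGF and TGFA, was highest in cells in the same 3 types as ERBB4, with 89 counts in Cajal-Retzius-like barcodes. In cells it stood at 44.7 ± 27.0 CPM (7.001 to 79.03) in Cajal-Retzius-like, 39.2 ± 6.07 (30.04 to 45.86) in choroid plexus-like and 35.7 ± 22.8 (12.5 to 79.5) in cortical hem-like barcodes, with overlapping ranges. Radial glia-like barcodes held 5.87 ± 1.94 CPM and excitatory neuron-like ones 2.46 ± 1.76. In nuclei the choroid plexus-like type held 60.5 and 77.1 CPM, the Cajal-Retzius-like type 45.6 and 64.3, and the inhibitory neuron-like type 11.3 and 20.6. The remaining named types of nuclei held between 1.39 and 8.25 CPM. The Cajal-Retzius-like level of nuclei rests on 35 counts, 54.2 CPM in the sum, and was 20.3 at Leiden resolution 0.5 and 30.4 at resolution 2.

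ERBB2, the ligandless partner receptor, varied less over the types than ERBB4 or EGFR. Its level in cells ran from 14.9 CPM in intermediate progenitor-like to 41.0 ± 5.42 in choroid plexus-like barcodes. Radial glia-like barcodes held 30.3 ± 3.81 (24.1 to 36.2) and excitatory neuron-like ones 17.1 ± 4.14 (9.14 to 22.3), and the 2 ranges of sub-libraries did not overlap. Over single wells these types did overlap. Radial glia-like cells reached 51.9 CPM with a median of 33.96, and excitatory neuron-like cells reached 75.4 with a median of 17.01. In nuclei the choroid plexus-like type held 33.8 and 35.1 CPM, radial glia-like nuclei 23.2 and 30.7, and excitatory neuron-like nuclei 7.33 and 8.77.

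ERBB3, the neuregulin receptor of the neural crest lineage, had 320 counts in all kept cells and 54 in all kept nuclei, or 2.03 and 0.748 CPM. No named type of cells was above 2.51 CPM. The highest cluster of cells was an unnamed one of 989 barcodes with 46 counts, or 7.81 CPM (exact Poisson 95% interval 5.72 to 10.4, which covers counting error only). SOX10, a defining factor of that lineage, stood at no more than 3.38 CPM in any named type of cells and 3.10 in any of nuclei. The whole list of 6 neural crest, Schwann and melanocyte markers was highest at 69.9 CPM in cells, in cluster 17, which holds 305 of the 338 cortical hem-like barcodes, against a median of 16.1 over the clusters. ERBB3 had 5 counts there. In nuclei the list reached 30.5 CPM, against a median of 14.9. No ERBB3 count was seen in 753 thinned inhibitory neuron-like nuclei, which allows a share of up to 0.398% of barcodes with a count by the limit of 3 counts and 0.489% by the exact binomial one. Without thinning, 3 counts were seen.

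The first comparison asked whether ligands and receptors differ between excitatory neurons and radial glia, the progenitors of the same lineage. A gene was tested when it had at least 20 counts over both types and called when its CPM differed at least 2-fold. In cells 2 of 7 members were called higher and 1 lower in excitatory neuron-like barcodes, while over 23330 tested genes 8.82% were called higher and 11.5% lower. The median log2 ratio was -0.40 for the members and -0.14 for all tested genes. NRG1 was 2.79-fold higher (log2 ratio 1.48, SD 0.38, positive in 8 of 8 sub-libraries) and NRG3 was 2.45-fold higher (log2 ratio 1.29, SD 0.19, 8 of 8). The radial glia-like NRG1 in the first ratio lay below its free-RNA estimate of 391 CPM. The excitatory neuron-like NRG1 depended on the clustering, with 1365 CPM at Leiden resolution 2 in place of 514. The ratios of NRG1 and NRG3 stood at the 95.04th and 93.9th percentile of all tested genes.

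Receptor ratios in the same cells rested on low levels. EGFR was called lower (log2 ratio -1.25, SD 0.73), with 116 counts in both types and levels at or below the free-RNA estimate. This call was lost at Leiden resolution 0.5 (-0.76) and with members kept among the variable genes (-0.93). ERBB4 fell just short of the limit at -0.99 (SD 0.44) and ERBB2 at -0.83 (SD 0.42), each negative in 8 of 8 sub-libraries. For ERBB4 both levels, 33.1 and 65.6 CPM, lay below their free-RNA estimates of 68.1 and 107, so the ratio compares levels that free RNA alone could give. ERBB2 lay above its estimates of 6.38 and 10.1 CPM. With the mean of single-barcode CPM in place of the summed counts, both passed it, at -1.15 and -1.01, and 5 members were called.

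In nuclei 2 of 6 tested members were called higher and 2 lower in excitatory neuron-like barcodes, against 11.7% and 21.2% of 19031 tested genes. NRG1 was 4.78-fold higher (log2 ratio 2.26) and NRG3 2.55-fold higher (1.35), the same ligands as in cells. The NRG1 ratio rests on 1 of the 2 excitatory neuron-like clusters, at 1479 CPM. The other, of 1084 barcodes, held 190, near the 165 of radial glia-like nuclei. Without the well that gave each type the most barcodes, NRG1 was 557 CPM in excitatory neuron-like and 174 in radial glia-like nuclei. ERBB2 was lower by 3.31-fold (log2 ratio -1.73) and ERBB4 by 2.95-fold (-1.56), with the excitatory neuron-like ERBB4 below its free-RNA estimate. EGFR, at -0.62, was not called, and ERBB3 had too few counts to be tested. The members' median log2 ratio was -0.22, beside -0.26 for all tested genes.

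**Figure D3:**
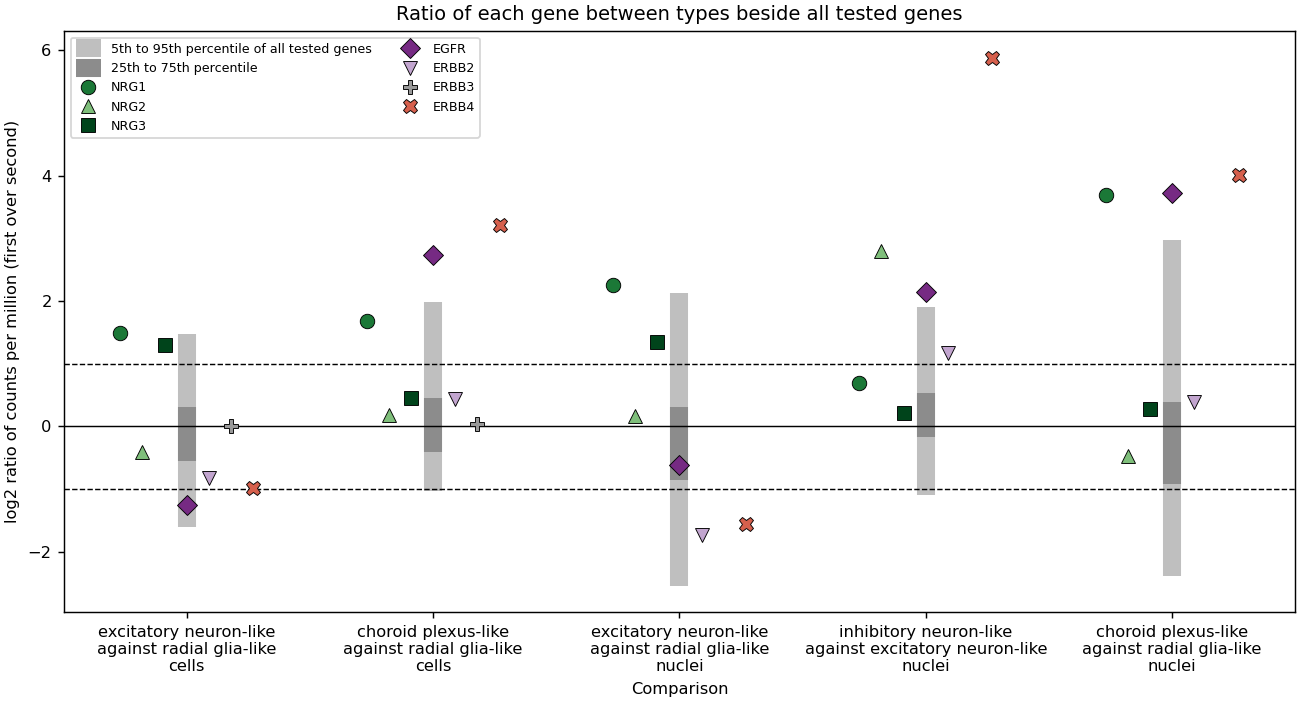
Log2 ratio of CPM for each tested gene in 5 comparisons of types (symbols), with the range of all tested genes as grey bars and 2-fold limits as dashed lines. NRG1 and NRG3 lay above the limit for excitatory neuron-like against radial glia-like barcodes in both libraries, and ERBB4 at 5.88 was the farthest point, for inhibitory neuron-like against excitatory neuron-like nuclei.

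The second comparison asked how the receptor best known from inhibitory neurons stands beside the excitatory neuron-like type, and it could be made in nuclei. The inhibitory neuron-like type rests on GAD1, GAD2 and DLX6-AS1, with its DLX factors near 0, and 3 Cajal-Retzius markers passed in it too. It was not found at Leiden resolution 0.5 or with members kept among the variable genes. Here 4 of 6 tested members were called higher and 0 lower, with 13.0% of 17408 tested genes called higher and 5.74% lower. ERBB4 was 58.9-fold higher (log2 ratio 5.88, with 5.47 and 6.29 in the sub-libraries), at the 99.9th percentile of all tested genes. The excitatory neuron-like level of 35.2 CPM lay below its free-RNA estimate of 55.3, so this fold is over a level that free RNA alone could give. NRG2 was 6.91-fold higher (2.79), EGFR 4.43-fold (2.15) and ERBB2 2.24-fold (1.16). NRG3 at 0.22 was not called. NRG1 at 0.70 was not called either, but reached 1.13 without the well that gave each type the most barcodes, an alternative chosen after seeing the data.

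The third comparison set choroid plexus-like barcodes, epithelium that arises from the same neuroepithelium, beside radial glia-like ones. The choroid plexus-like nuclei are 1 cluster that passed 7 markers of that list, with a mean log2 fold of 3.28, but the list of multiciliated cells had a higher mean still, and cilia genes such as CFAP47 led the cluster. Cilia genes were taken as a state, since this epithelium carries cilia. In cells 3 of 7 members were called higher and 0 lower, where 13.1% of 24870 tested genes were called higher and 5.31% lower. ERBB4 was 9.27-fold higher (log2 ratio 3.21, SD 0.41), EGFR 6.68-fold (2.74, SD 0.55) and NRG1 3.22-fold (1.69, SD 0.39), each in 8 of 8 sub-libraries. The radial glia-like levels of all 3 lay below their free-RNA estimates of 107, 7.07 and 391 CPM, so these folds are over levels that free RNA alone could give. In nuclei, where the radial glia-like levels lay above their estimates, the members called higher were again ERBB4 (16.2-fold, log2 ratio 4.02), EGFR (13.1-fold, 3.72) and NRG1 (12.9-fold, 3.69). They were 3 of 6 tested members, with 0 lower, beside 14.9% and 22.9% of 17446 tested genes. NRG2, NRG3 and ERBB2 stayed within 1.38-fold in either direction in both libraries. The members' median log2 ratio was 0.45 in cells and 2.03 in nuclei, against -0.04 and -0.29 for all tested genes.

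Detection in single barcodes did not always follow the order of the levels. In nuclei ERBB4 was higher by level in the inhibitory neuron-like type (2071 CPM) than in the choroid plexus-like one (1678), but not by detection. After each barcode was thinned to 1000 transcripts, ERBB4 was detected in 68.1% of choroid plexus-like nuclei (exact binomial 95% interval 62.9 to 73.0) and in 44.9% of inhibitory neuron-like nuclei (41.3 to 48.5). The share in excitatory neuron-like nuclei, a type that should hold little of it, was 2.37%, with median depths of 9780, 3926 and 4389 transcripts before thinning. Without thinning the shares were 96.5%, 60.4% and 9.14%. In cells ERBB4 was detected in 53.3% of cortical hem-like, 34.7% of choroid plexus-like and 33.3% of Cajal-Retzius-like barcodes, beside 2.99% of excitatory neuron-like ones. NRG3 was detected in 62.9% of excitatory neuron-like cells and 73.6% of such nuclei, beside 37.05% of radial glia-like cells and 48.8% of such nuclei. NRG1 was detected in 39.6% of intermediate progenitor-like cells, beside 16.7% of radial glia-like ones, whose level lay below the free-RNA estimate, and 32.7% of all kept cells.

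Ligand and receptor transcripts occurred in the same barcodes. Doublets were left in and free RNA was not removed, so a shared barcode need not be a single cell that expressed both. Of thinned barcodes with ERBB4, 89.1% in inhibitory neuron-like nuclei and 90.1% in choroid plexus-like nuclei also held NRG1 or NRG3. Over all barcodes of these types, with or without ERBB4, 87.8% and 88.6% held either ligand, close to the shares among receptor-bearing barcodes. In choroid plexus-like cells the shares were 66.7% of barcodes with ERBB4 and 65.6% of all. Some types where fewer barcodes held ERBB4 differed as little. In excitatory neuron-like nuclei 81.0% of barcodes with ERBB4 and 81.5% of all held a ligand, and in intermediate progenitor-like nuclei 42.6% and 43.8%. Others differed more. In dividing nuclei 77.1% of barcodes with ERBB4 and 64.6% of all held a ligand. The shares were 63.3% and 54.2% in dividing cells and 50.9% and 39.7% in glycolytic cells. In excitatory neuron-like cells the order was the other way, at 64.3% and 75.1%. Glycolytic and excitatory neuron-like cells rest on 57 and 42 barcodes with ERBB4. ERBB4 in these cells, and in excitatory neuron-like nuclei, lay below its free-RNA estimates.

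Levels varied over the first-round wells, which hold samples whose condition is not given. Among the 41 of 48 wells of cells with at least 100 kept barcodes, NRG1 ran from 159 to 3385 CPM with a median of 530. In the well with the highest value, 82.8% of barcodes lay in clusters 11 and 13, and its other barcodes held 2761 CPM. Outside those clusters NRG1 still ran from 159 to 3642 CPM over the wells, with a median of 533, and in the 16 wells with no barcode of those clusters it ran from 188 to 1037. Within intermediate progenitor-like cells alone, 18 wells with at least 20 such barcodes ran from 215 to 9201 CPM, with a median of 1037. The summed level of 1467 is therefore no level shared by all wells.

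ERBB4 in wells of cells ran from 28.8 to 996 CPM with a median of 122. In the highest of these wells 91.1% of barcodes were choroid plexus-, cortical hem- or Cajal-Retzius-like, and in the lowest 2.06% were. Within choroid plexus-like cells, 17 wells ran from 106 to 1196 CPM, and within radial glia-like cells 22 wells ran from 29.4 to 225, so the types overlapped when single wells were compared. The 12 wells of nuclei ran from 237 to 745 CPM, and within inhibitory neuron-like nuclei from 596 to 5006 with a median of 1885. Excitatory neuron-like nuclei of those 12 wells ran from 12.8 to 88.8, below every inhibitory neuron-like value.

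Over all kept barcodes NRG3 was steadier over wells, from 459 to 1398 CPM in cells and from 1149 to 1832 in nuclei. It was not steady in Cajal-Retzius-like cells, its highest named type there. These ran from 528 to 2037 CPM with a median of 667 over 3 wells with at least 20 such barcodes. In excitatory neuron-like barcodes it ran from 994 to 2004 CPM over 21 wells of cells and from 1884 to 3202 over 12 wells of nuclei. Radial glia-like barcodes ran from 369 to 869 and from 576 to 1055 CPM, so that no well of either library overlapped between these types. NRG1 did overlap, with 60.3 to 2063 CPM in excitatory neuron-like against 75.4 to 624 in radial glia-like cells. In nuclei it overlapped as well, with 116 to 1314 against 68.8 to 409 CPM.

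**Figure D4:**
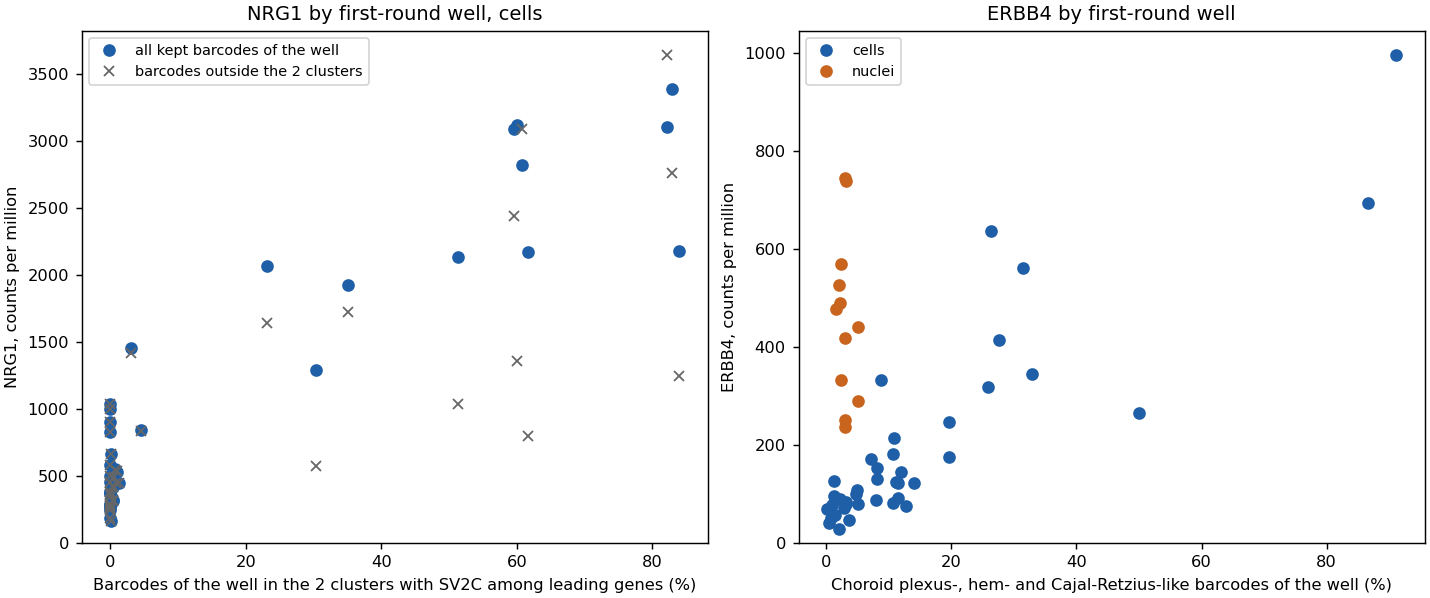
Left, NRG1 (CPM) in each well of cells against the percent of its barcodes in clusters 11 and 13, which have SV2C among their 10 leading genes, for all kept barcodes (blue) and for those outside the clusters (crosses). The first leading gene of cluster 11 is NRG1 itself, which was left out of the clustering. Right, ERBB4 in each well of cells (blue) and nuclei (orange) against the percent of choroid plexus-, cortical hem- and Cajal-Retzius-like barcodes. The well highest in NRG1 held 3385, and the well highest in ERBB4 held 996 with 91.1% of its barcodes in those 3 types.

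The same types were set side by side in cells and nuclei, which were prepared with different kits and shared only day 45 of the days given. NRG3 was higher in nuclei in all 7 types found in both, by 1.53 to 2.41 times. ERBB2 was lower in nuclei in all 7, at 0.467 to 0.914 of the level in cells, on as few as 10 counts in Cajal-Retzius-like nuclei. ERBB3 rested on 1 to 10 counts per type of nuclei, too few for a comparison type by type. NRG1 ranged from 0.501 times, in intermediate progenitor-like, to 3.59 times, in choroid plexus-like barcodes, and ERBB4 from 0.369 times, in Cajal-Retzius-like, to 3.00 times, in glycolytic barcodes. The glycolytic ERBB4 levels lay below their free-RNA estimates in both libraries, and the Cajal-Retzius-like level of nuclei was 1842 CPM in place of 410 at Leiden resolution 0.5. The intermediate progenitor-like NRG1 levels also depended on the clustering, with 722 CPM in place of 1467 in cells at resolution 2 and 442 in place of 735 in nuclei at resolution 0.5.

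**Figure D5:**
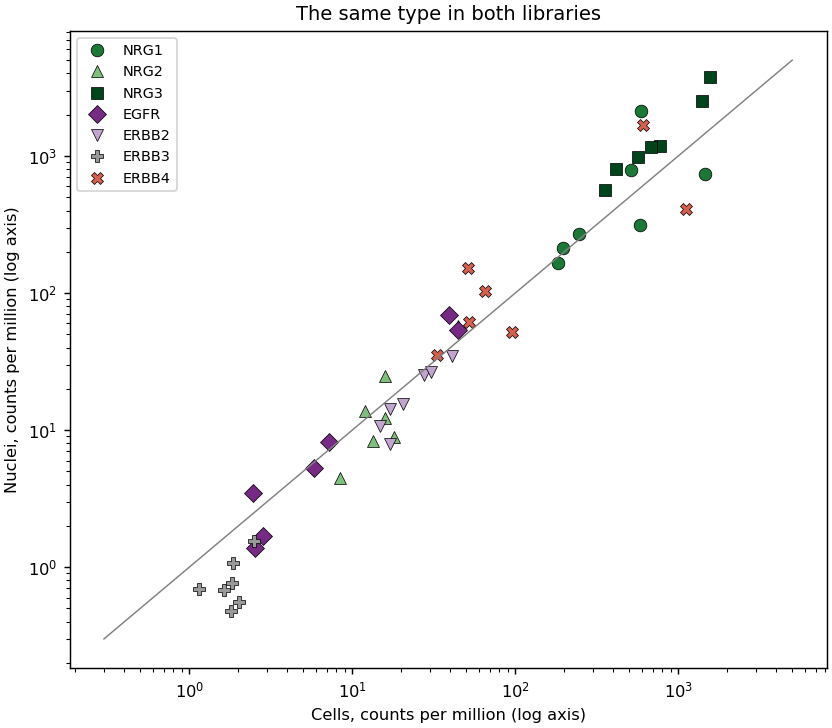
Level of each gene in nuclei against cells (CPM, both axes log), 1 point for each of the 7 types found in both libraries, with the line of equal levels. All 7 NRG3 points lay above the line, at 1.53 to 2.41 times, and all ERBB2 points lay below it. The ERBB3 points rest on 1 to 10 counts per type of nuclei and are not compared.

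The wider pathway was read from a list of 43 genes grouped by role. For excitatory neuron-like against radial glia-like barcodes, 2 of 39 tested genes were called higher and 7 lower in cells, and 3 and 13 of 37 in nuclei. Over all tested genes the shares were the 8.82% and 11.5% and the 11.7% and 21.2% given above. 9 genes were called in the same direction in both libraries. Among negative regulators, LRIG1, which promotes the breakdown of ERBB receptors, stood at 58.0 CPM in excitatory neuron-like and 369 in radial glia-like cells (log2 ratio -2.67), and at 40.5 and 543 in nuclei (-3.74). Its relative LRIG3 stood at 10.97 and 107.6 CPM in cells (-3.29) and at 6.99 and 124 in nuclei (-4.15). No gene of this group was called higher, and 7 of its 9 in cells were not called.

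Of the other ligands, EGF was lower in excitatory neuron-like barcodes, at 5.35 against 30.6 CPM in cells and 2.30 against 46.1 in nuclei. BTC, betacellulin, was also called lower, but from levels of 1.09 and 2.02 CPM or less. Of the proteases, ADAM19, which can release neuregulins from the membrane, was higher, at 46.6 against 12.9 CPM in cells (log2 ratio 1.85) and 73.0 against 12.1 in nuclei (2.59). ADAM10 and ADAM17, which also shed ligands of the family, were called lower in nuclei.

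Of the adaptors, the docking protein gene GAB1 (54.9 against 160 CPM in cells) and STAT5B (54.8 against 115) were lower, and PIK3R3, a regulatory subunit of phosphoinositide 3-kinase, was higher (441.1 against 212.5), each with the same call in nuclei. ERBIN, which binds ERBB2, was lower at 108.5 against 310.5 CPM in cells and 103 against 323 in nuclei. For choroid plexus-like against radial glia-like barcodes, 7 of 40 tested genes were called higher and 2 lower in cells, and 8 and 5 of 37 in nuclei. Over all tested genes the shares were 13.1% and 5.31% in cells and 14.9% and 22.9% in nuclei. NRG4, BTC and SHC1 were called higher, and EGF and LRIG1 lower, in both libraries. In inhibitory neuron-like against excitatory neuron-like nuclei, 5 of 36 were called higher, namely EGF, STAT5B, LRIG1, LRIG3 and CBLB, and 0 lower, beside 13.0% and 5.74% of all tested genes. The count of higher genes was thus near the share over all genes.

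For each member, the genes with the most similar pattern over clusters were found by Pearson correlation of log2(CPM + 10), over 23 clusters of cells and 17 of nuclei that share their library. NRG3 had CADM2 (r = 0.763 in cells, 0.888 in nuclei) and NTM (0.729 and 0.892) among its 3 most similar genes in both libraries. NRG1 was most like CADPS (0.863) in cells and SMYD2 (0.859) in nuclei, with no gene in common between its 3 in each. ERBB4 was most like TENM2 (0.946), OTX2-AS1 (0.930) and PRTG (0.916) in cells and FRAS1, PTPRT and ABTB3 (0.944, 0.944 and 0.936) in nuclei. EGFR was most like LAMA2 (0.896) in cells and SPRY4-AS1 (0.948) in nuclei. ERBB2 was most like QARS1 (0.934) in cells and HTRA1 (0.964) in nuclei. NRG2 was most like C3orf20 (0.882) in cells and TENM1 (0.911) in nuclei, and ERBB3, too sparse in nuclei, was most like MYPN (0.908) in cells.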

How the data were processed

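Split-seq transcripts were measured in 1 library of cells and 1 of nuclei. By the study's methods, reads were demultiplexed with demuxFQ into 8 and 2 sub-libraries and processed with spipe 1.0.3 on a GRCh38 reference of release 108. The authors deposited unfiltered counts of transcripts per gene and barcode, before their own filters, doublet calls and removal of free RNA, and these counts were used as deposited. 157306492 and 72162726 transcripts remained after the filters given above, with quartiles of 1427 and 7223.75 transcripts per barcode in cells and 2275 and 6191.25 in nuclei.

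Clusters were built in scanpy 1.11.5 and leidenalg 0.10.2 from 2000 variable genes, 30 principal components, 15 neighbours and Leiden resolution 1. A type was named when at least 3 markers of its list passed 2 limits. The summed level in the cluster was at least 1.5-fold that of all other barcodes, and at least 5% of the cluster's barcodes held a count. Its list also needed a mean log2 fold of at least 0.5 (pseudocount 5 CPM) and a margin of 0.25 over any other list with at least 3 such markers. A cluster stayed unnamed where another list had more of its 10 leading genes, and the list of multiciliated cells was left out of both rules, since cilia were taken as a state and not as a type. A cluster far shallower than its library, with no marker of its list among its 10 leading genes, would also have stayed unnamed, but no cluster did for this reason. These limits were set after the marker levels, but not the member levels, had been seen. Scrublet in scanpy marked 0 barcodes in both libraries and so did not work, and doublets were left in. As an alternative, the 5% of cells and 3% of nuclei with the highest scores were left out.

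Levels carry the SD over sub-libraries. Poisson and binomial intervals are exact at 95%. A type without counts was set to 3 counts in ratios. Named genes were all members, pathway genes past 2-fold in the same direction in both libraries (at most the 10 largest), the 3 most similar genes of each member with 200 or more counts, and the markers. Other genes are named where a cluster's leading genes or a list's counts are given, and were chosen after their values were seen. Ratios and intervals were checked on simulated counts. The members and lists were chosen with earlier results of these data known. Promoter sequences are RefSeq's (GRCh38.p14). Alternatives were another depth limit (2000), mitochondrial limit (10%), clustering (0.5 and 2), count limit (100), barcode means, and, chosen after seeing the data, leaving out leading wells or barcodes over 20000 transcripts.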

Additional observations from a re-analysis of the deposited data

Results flagged for a closer look

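Barcodes of 10 to 100 transcripts, which enter no comparison, held every member, and there were no control barcodes to set beside them. In the 1022725 such barcodes of cells, NRG1 stood at 837 CPM, NRG2 at 18.4 and NRG3 at 777. The receptors stood at 15.1 CPM for EGFR, 21.5 for ERBB2, 1.69 for ERBB3 (58 counts) and 230 for ERBB4. In the 167580 such barcodes of nuclei, NRG1 stood at 594 CPM, NRG2 at 21.2 and NRG3 at 1484. There EGFR stood at 15.3 CPM, ERBB2 at 17.6, ERBB3 at 1.07 (7 counts) and ERBB4 at 445. Each level rests on more than the 3 counts that a count of 0 allows. Over all kept barcodes of cells and nuclei, NRG1 stood at 730 and 632 CPM and ERBB4 at 187 and 419.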

How the results depend on the processing

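No paired analysis was possible because each library is 1 sample and no result comes from a test over samples, so a replicate block could not be fitted. No log2 ratio of a called member changed sign under any alternative run. The count of members past 2-fold moved by over 1.5 times once, for excitatory neuron-like against radial glia-like cells, from 3 to 5 with barcode means. Calls changed for EGFR in that comparison, to -0.76 at Leiden resolution 0.5 and -0.93 with members kept among the variable genes, and for ERBB2, to -1.14 at resolution 2 and -1.07 without barcodes over 20000 transcripts. The inhibitory neuron-like comparison was not run in cells, nor at resolution 0.5 or with members kept, since no such type was found. Of 98 levels at resolution 2, 5 moved by over 1.5 times, among them NRG1 in intermediate progenitor-like (722 CPM) and excitatory neuron-like cells (1365). Of 74 at resolution 0.5, 5 did, 4 of them in Cajal-Retzius-like nuclei, where NRG1 was 1150 CPM, NRG2 89.9, EGFR 20.3 and ERBB4 1842, and the other was NRG1 in intermediate progenitor-like nuclei (442). The cause was not tested. With 1 sample per library, sub-library spread and counting intervals leave out the spread between organoids, and ERBB3 had too few counts to be compared in nuclei.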
